A study of Mus musculus with 15 samples.

Results

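Srci1, a compound known here by that name alone, was compared with its DMSO vehicle in mouse CD4 T cells grown under Treg conditions, and the comparison rested on 6 of the 15 libraries of the series, 3 with Srci1 and 3 with DMSO. It was described across the 11740 genes, of 55421 in the table, that reached 1 TPM in at least 3 of these 6 libraries. TPM gives the length-corrected abundance of a gene on a scale with the same total in every library. The cells were wild type and were harvested on day 5. Naive T cells (CD4+, CD25- and CD44 low) from spleen and lymph node were activated on plates coated with antibodies to CD3 and CD28. Treg cultures received TGFβ, IL-2 and antibodies that block IFNγ and IL-4, and Srci1 or DMSO went in 24 h after plating, at a concentration not given in the labels used here. Srci1 and DMSO libraries of wild-type TH17 cultures, 3 of each, were used to ask whether the response differed between the cultures. Their medium held IL-6, IL-23 and IL-1β beside TGFβ, so the cultures differ in cytokines as well as in lineage. No label says whether the replicates of a group were separate animals or wells, and p-values therefore describe the spread between libraries, which may be technical.

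Regulatory T (Treg) cells restrain immune responses and are defined by the transcription factor FOXP3, which TGFβ induces in activated naive cells. IL-2, acting through the kinases JAK1 and JAK3 and the factor STAT5, sustains FOXP3. STAT3, which IL-6 activates, favours the opposed TH17 lineage. Activated T cells also switch to glycolysis and to growth and division, under the control of T cell receptor signals that begin with the Src family kinases LCK and FYN.

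The 6 libraries carried their lineage markers: Cd3e, Cd4, Foxp3, Il2ra and Ctla4 each exceeded 100 TPM in all 6. Across the tested genes, libraries correlated at r = 0.985 to 0.986 within the Srci1 group and at r = 0.986 within the DMSO group, and between the groups at r = 0.963 to 0.966, so no library stood apart. Depth is unknown, since TPM keeps no record of it. Ribosomal protein transcripts took 20.3 to 21.3% of TPM with Srci1 and 24.9 to 25.2% with DMSO, and mitochondrial transcripts 4.52 to 5.47% with Srci1 and 3.39 to 3.62% with DMSO. With these genes removed before scaling, 1768 genes were higher and 1398 lower, against 2224 and 1261 with them, and 55.8% of calls were higher. List counts of Srci1 against DMSO in Treg are also given after median-of-ratios scaling, which sets the median gene to be equal between libraries. They are given wherever this scaling changed a direction or moved a count beyond 1.5 times.

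Srci1 changed a large part of the Treg transcriptome by small amounts, with the largest falls and rises in a much smaller set. By limma at an adjusted p under 0.05, 3485 of 11740 genes (29.7%) were called, 2224 of them higher (18.9%) and 1261 lower (10.7%). At 2-fold or more on the scale of TPM + 1, the order was the other way, with 130 genes higher (1.11%) and 330 lower (2.81%). The median log2 fold change over all tested genes was 0.12, and list medians below are given relative to it. The share of calls that were higher was 63.8%, and 43.9% after median-of-ratios scaling (1374 higher, 1757 lower), under which 2630 calls kept their direction and 0 turned. Without regard to the test, the 3 Srci1 libraries all lay above the 3 DMSO libraries for 36.4% of tested genes and all below them for 16.5%. Of the tested genes, 134 were below 1 TPM in all 3 Srci1 libraries and 81 in all 3 DMSO libraries, so that they entered the test through the other group alone and had to differ. Lists that hold such genes are counted without them below, a choice made after seeing the data. Some genes stand in several lists and are counted in each, so the lists are not separate evidence. Because these are bulk cultures, fewer cells of a type and less RNA per cell cannot be told apart.

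**Figure D1:**
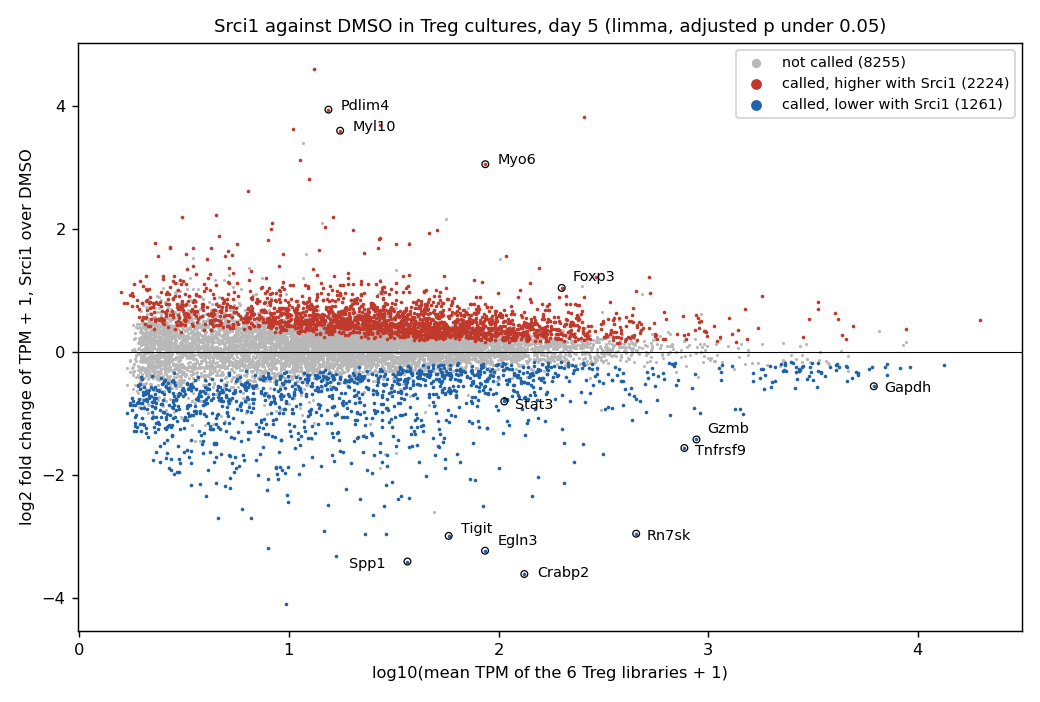
Each point is 1 of the 11740 tested genes, with log10 of the mean TPM + 1 of the 6 Treg libraries on the x axis and the log2 fold change of TPM + 1, Srci1 over DMSO, on the y axis. The 2224 genes called higher (red) lie mostly close to the centre, with a few far above it, such as Pdlim4 and Myl10. The 1261 called lower (blue) hold more genes beyond 2-fold (330 against 130), with Crabp2, Spp1, Egln3 and Tigit far below the centre.

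Foxp3 itself rose, while most of the other called genes of the Treg program fell. Foxp3 (ENSMUSG00000039521.13, GRCm38 chromosome X, 7573644 to 7595245, plus strand) was at 257, 279 and 270.1 TPM with Srci1 and 131, 131 and 127 TPM with DMSO. The groups did not overlap, and the mean was 2.07-fold higher with Srci1 (log2 fold change 1.04 ± 0.10 (SE), limma adjusted p = 4.45e-06). Fold values without a scale are ratios of mean TPM. Il2ra, the IL-2 receptor alpha chain, was at 1026, 1072 and 1101 TPM with Srci1 and 728, 719.9 and 732 TPM with DMSO, again with no overlap and 1.47-fold higher (log2 fold change 0.55 ± 0.10 (SE), limma adjusted p = 0.00118). Gpr83, a G protein-coupled receptor gene found in Treg cells, rose 2.42-fold, at 49, 47.1 and 48.1 TPM with Srci1 and 20.7, 19.4 and 19.5 TPM with DMSO. Ikzf2, which encodes the Ikaros-family factor HELIOS, was low in every library, at 2.98, 2.85 and 3.68 TPM with Srci1 and 0.6, 2.09 and 1.56 TPM with DMSO (log2 fold change 0.83 ± 0.23 (SE), limma adjusted p = 0.0162). Its call ended without DMSO replicate 1 (adjusted p = 0.0754) or Srci1 replicate 3 (0.0625). Socs2, a suppressor of cytokine signalling induced by STAT5, was the remaining gene of the list to rise (1.59-fold, 306 ± 17.5 TPM with Srci1 against 193 ± 12.1 TPM with DMSO; SD, n = 3 libraries per group, as for every mean below).

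Tigit, which encodes an inhibitory receptor of Treg and exhausted T cells, fell the most among Treg genes. It was at 13, 12.7 and 10.2 TPM with Srci1 and 97.1, 109 and 99.3 TPM with DMSO, 8.5-fold lower with no overlap (log2 fold change -2.99 ± 0.093 (SE), limma adjusted p = 1.25e-10). Co-stimulatory receptors of the TNF receptor family followed. Tnfrsf9, which encodes 4-1BB, was at 370.1, 425 and 372 TPM with Srci1 and 1148, 1128 and 1167 TPM with DMSO. Tnfrsf4 (OX40) was 1.87-fold lower and Tnfrsf18 (GITR) 1.47-fold lower. Izumo1r, the gene of folate receptor 4, fell 1.6-fold, at 221, 209 and 196 TPM with Srci1 and 334, 333 and 331 TPM with DMSO. Ctla4, the inhibitory receptor that competes for CD28 ligands, was at 244, 251 and 249 TPM with Srci1 and 321, 325 and 327 TPM with DMSO, a small difference of 1.31-fold (log2 fold change -0.38 ± 0.10 (SE), limma adjusted p = 0.0112). Of the 21 tested genes of the Treg program, 5 rose, 10 fell and 6 were not called, with a median of -0.21. Over all tested genes 18.9% were higher and 10.7% lower, so the rises were close to that share and the falls above it. Uncalled members included Nrp1 (28.8 ± 3.11 against 29.3 ± 0.587 TPM), Icos (141 ± 15.4 against 113 ± 9.23 TPM), Ebi3 (14.1 ± 1.75 against 14.3 ± 1.52 TPM) and Nt5e (30.5 ± 3.45 against 32.2 ± 1.28 TPM). Itgae and Il10 stayed below 1 TPM in all 6 libraries and were not tested.

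**Figure D2:**
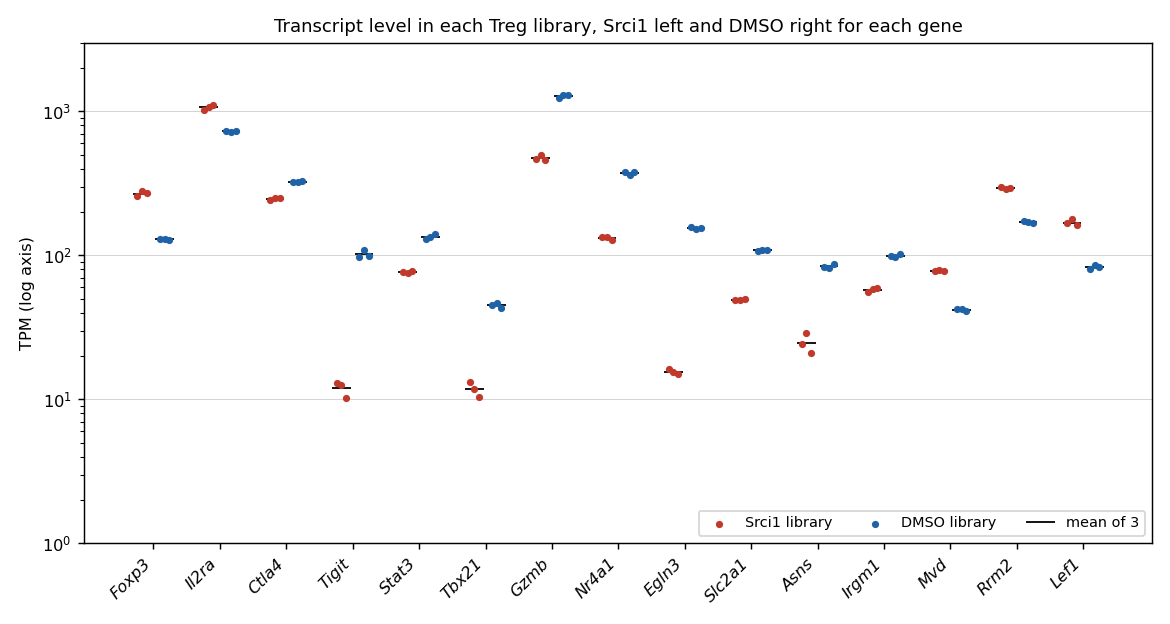
TPM on a log axis in each of the 6 Treg libraries for 15 genes, with the 3 Srci1 libraries (red) left of the 3 DMSO libraries (blue) and a bar at each mean. For each of these genes the groups did not overlap: Foxp3, Il2ra, Mvd, Rrm2 and Lef1 were higher with Srci1, and the other genes were lower.

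Among the STAT and JAK genes, Stat3 and Jak3 fell and Jak1 rose. Stat3 (ENSMUSG00000004040.16, GRCm38 chromosome 11, 100885098 to 100939540, minus strand) was at 76.1, 75.2 and 78.2 TPM with Srci1 and 129.6, 134 and 139.9 TPM with DMSO. All 3 Srci1 libraries lay below all 3 DMSO libraries, 1.76-fold in the means (log2 fold change -0.80 ± 0.1 (SE), limma adjusted p = 4.24e-05). Jak3, the kinase of the common gamma chain, was at 68.1, 73.8 and 73.4 TPM with Srci1 and 108, 109.5 and 110.3 TPM with DMSO and fell 1.52-fold. Jak1 rose 1.44-fold, at 109, 110.4 and 108 TPM with Srci1 and 75.1, 74.7 and 77.7 TPM with DMSO. Stat5a (126 ± 8.89 TPM with Srci1 against 165 ± 12.2 TPM with DMSO) and Stat5b (60.6 ± 3.36 TPM with Srci1 against 75.9 ± 1.86 TPM with DMSO) were lower with limma adjusted p values of 0.0324 and 0.0346. Both calls ended without 5 of the 6 libraries left out in turn (adjusted p up to 0.115 for Stat5a and 0.109 for Stat5b). Over the 11 genes, 1 rose and 5 fell, or 1 and 8 after median-of-ratios scaling. Among all tested genes 18.9% were higher and 10.7% lower.

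Genes known as STAT3 pathway members or targets moved in both directions. Il6ra and Il6st, which encode the IL-6 receptor and its signalling chain, rose 2.13-fold and 1.72-fold. Il6ra was at 34, 34.2 and 40.9 TPM with Srci1 and 18.8, 16.1 and 16.3 TPM with DMSO. Batf, an AP-1 partner factor, rose 1.53-fold (121 ± 4.92 TPM with Srci1 against 79.2 ± 3.43 TPM with DMSO), and Junb fell 1.61-fold (321 ± 3.55 TPM with Srci1 against 518 ± 14.9 TPM with DMSO). Socs3, a feedback inhibitor that STAT3 induces, was at 28, 29 and 29.9 TPM with Srci1 and 29.6, 27.4 and 30.2 TPM with DMSO and overlapped between the groups (log2 fold change -0.0052 ± 0.071 (SE), limma adjusted p = 0.963, 95% interval -0.16 to 0.15). Of 16 genes, 3 rose and 7 fell (median -0.41), where 18.9% of all tested genes were higher and 10.7% lower. In the IL-2 and STAT5 list, 5 of 14 rose and 1 fell (median 0.037), or 4 and 2 after median-of-ratios scaling, and Il2ra and Socs2 stand in this list too. Osm, the cytokine oncostatin M, was at 45.8, 44.4 and 46.1 TPM with Srci1 and 23.5, 22.4 and 22.2 TPM with DMSO, and the cyclin gene Ccnd3 rose 1.46-fold beside a 1.38-fold fall of Ccnd2. Cish, a STAT5 target, was not called (184 ± 3.7 TPM with Srci1 against 199.9 ± 3.72 TPM with DMSO; log2 fold change -0.12 ± 0.057 (SE), limma adjusted p = 0.145), but was called lower under 4 alternatives, at -0.24 after median-of-ratios scaling (limma adjusted p = 0.0104). Il2 was not called either (8.22 ± 0.613 TPM with Srci1 against 11.3 ± 1.42 TPM with DMSO, limma adjusted p = 0.069), and was called lower under 5 alternatives, at -0.52 after median-of-ratios scaling (limma adjusted p = 0.0298).

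The Src family kinase transcripts Lck, Fyn and Src did not pass the test. Lck was at 425, 434 and 409 TPM with Srci1 and 446, 426 and 437 TPM with DMSO (log2 fold change -0.046 ± 0.047 (SE), limma adjusted p = 0.484, 95% interval -0.15 to 0.054), and Fyn at 149.8, 152 and 154 TPM with Srci1 and 144, 149.7 and 139 TPM with DMSO (log2 fold change 0.074 ± 0.066 (SE), limma adjusted p = 0.422, 95% interval -0.068 to 0.22). After median-of-ratios scaling the Fyn value was -0.050 on the log2 scale. Src was near 1 TPM in every library (1.04 ± 0.286 against 1.18 ± 0.295 TPM), and Lyn and Blk were not tested because of their low levels. Of their regulators, Csk, the kinase that inactivates them, rose 1.3-fold (348 ± 24.9 TPM with Srci1 against 268 ± 6.35 TPM with DMSO), its membrane adaptor gene Pag1 rose 1.91-fold (10.6 ± 1.36 TPM with Srci1 against 5.55 ± 0.18 TPM with DMSO), and the phosphatase gene Ptpn22 fell 1.63-fold (47.1 ± 0.655 TPM with Srci1 against 76.8 ± 4.03 TPM with DMSO). Over the 11 kinases and regulators counted, 2 rose and 2 fell, Ptpn22 and Dok1, and the other genes were not called, among them Yes1, Ptpn6, Ptprc and Dok2, where 29.7% of all tested genes were called. Downstream of the receptor, the T cell receptor complex and signalling genes were split, 7 higher and 7 lower of 24. The adaptor Grap2 rose 1.84-fold and the kinase Prkcq 1.56-fold, whereas Zap70, the kinase that docks on the receptor, fell 1.34-fold and Ubash3b, a phosphatase, 2.2-fold. After median-of-ratios scaling this split was 5 higher and 10 lower. Among all tested genes 18.9% were higher and 10.7% lower.

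Transcripts that T cell receptor signals induce were lower with Srci1 across nearly the whole list. Of 25 genes, 0 rose and 21 fell, with a median of -0.81 relative to all genes, where 10.7% of all tested genes were lower. Tnfrsf9 and Tnfrsf4 are counted here as well as in the Treg program. Nr4a1, an orphan nuclear receptor and an early reporter of receptor signal strength, was at 133, 134 and 128 TPM with Srci1 and 379, 361 and 378 TPM with DMSO, with 2.82-fold lower means and no overlap (log2 fold change -1.49 ± 0.061 (SE), limma adjusted p = 1.68e-09). Egr1, an immediate-early zinc finger factor, was at 25.3, 26.9 and 24.5 TPM with Srci1 and 74.3, 77.6 and 78 TPM with DMSO. Egr2 was 2.59-fold, Spry1 2.09-fold, Nr4a3 1.94-fold and Irf4 1.73-fold lower, while Ier3 was at 2.65, 3.34 and 2.6 TPM with Srci1 and 12.7, 13.1 and 16.9 TPM with DMSO. Myc, the growth regulator, was a smaller case (243 ± 7.52 TPM with Srci1 against 292 ± 6.24 TPM with DMSO, 1.2-fold lower). The 4 uncalled genes were Cd69, Fos, Rel and Il2.

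Of 11 AP-1 genes 8 fell and 1 rose, Batf (median -0.92). Batf and Junb are also counted among the STAT3 genes above. For each count in this paragraph, the shares of all tested genes were 10.7% lower and 18.9% higher. Fosl2 was at 6.62, 5.2 and 6.07 TPM with Srci1 and 41.6, 43.9 and 42.1 TPM with DMSO, 7.13-fold lower, and Batf3 at 2.16, 5.37 and 3.29 TPM with Srci1 and 16.4, 14.2 and 19.4 TPM with DMSO. NF-κB subunits and inhibitors fell in 7 of 12 and rose in 0 (median -0.41), led by Nfkb2 (128 ± 3.74 TPM with Srci1 against 208 ± 1.86 TPM with DMSO) and Nfkb1 (292 ± 4.02 TPM with Srci1 against 402 ± 13.1 TPM with DMSO). Co-stimulatory and checkpoint receptors, a list that shares Tigit, Ctla4 and the TNF receptor genes with the Treg program, fell in 13 of 20 counted and rose in 1 (median -0.65), leaving out Havcr2, which was below 1 TPM in every Srci1 library. Lag3, which binds MHC class II, was at 9.91, 10.7 and 10.1 TPM with Srci1 and 61.9, 51.8 and 54.7 TPM with DMSO, 5.48-fold lower. Cd80, a CD28 ligand, was at 17.2, 18.4 and 17.4 TPM with Srci1 and 66.1, 63.3 and 61.8 TPM with DMSO, and Pdcd1, the gene of PD-1, was 2.24-fold lower (35.4 ± 2.72 TPM with Srci1 against 79.1 ± 1.68 TPM with DMSO). Cd96, a receptor that shares a ligand with TIGIT, was the gene that rose, at 17.4, 19.9 and 17.3 TPM with Srci1 and 7.26, 7.48 and 6.42 TPM with DMSO.

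Naive and memory genes mostly moved the opposite way. Of 14, 10 rose and 2 fell (median 0.36), where 18.9% of all tested genes were higher and 10.7% lower. The falls were thus near the share of all tested genes. Lef1, a transcription factor of naive cells, was at 167, 178 and 162 TPM with Srci1 and 80.2, 86.2 and 82.9 TPM with DMSO, 2.04-fold higher with no overlap (log2 fold change 1.02 ± 0.15 (SE), limma adjusted p = 0.000164), and Dapl1 was at 44, 35.6 and 39.4 TPM with Srci1 and 12.4, 11.4 and 10.8 TPM with DMSO. Satb1 rose 1.74-fold, Igfbp4 1.65-fold and the egress receptor S1pr1 1.41-fold. The 2 genes that fell were Ccr7, the lymph node homing receptor (423, 430.4 and 407 TPM with Srci1 and 718, 709.8 and 733 TPM with DMSO), and Il7r, the IL-7 receptor (20.3, 20.1 and 24.9 TPM with Srci1 and 59.9, 47.8 and 61.7 TPM with DMSO).

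Genes of the other helper lineages were mostly lower. Of 15 TH1 genes 9 fell and 1 rose, with a median of -1.52, the lowest of the helper programs tested. Among all tested genes 10.7% were lower and 18.9% higher. Tbx21, the gene of T-bet and the master factor of the TH1 lineage, was at 13.3, 11.9 and 10.4 TPM with Srci1 and 45.6, 46.4 and 43.1 TPM with DMSO, 3.8-fold lower (log2 fold change -1.85 ± 0.12 (SE), limma adjusted p = 1.29e-07). Il12rb2, a chain of the IL-12 receptor, was at 9.02, 9.54 and 10.5 TPM with Srci1 and 55.5, 51.9 and 57 TPM with DMSO. Both groups of libraries were separated for these genes and for Ifng, which was at 5.02, 14.3 and 5.67 TPM with Srci1 and 25, 26.6 and 23.1 TPM with DMSO although 1 Srci1 library was well above the other two. The chemokine genes Ccl3, Ccl4 and Ccl5 fell 5.09-fold, 4.15-fold and 3.68-fold. Eomes (13.4 ± 0.491 TPM with Srci1 against 15.3 ± 0.41 TPM with DMSO) and Stat4 (24.6 ± 1.16 TPM with Srci1 against 29.3 ± 0.126 TPM with DMSO) were not called. Il18r1, the IL-18 receptor, was the gene that rose (2.09-fold, 40.2 ± 4.09 TPM with Srci1 against 19.2 ± 0.365 TPM with DMSO).

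Cytotoxic granule genes fell beside them. Gzmb, which encodes granzyme B, was at 470.0, 498 and 462 TPM with Srci1 and 1244, 1290.0 and 1302 TPM with DMSO, 2.68-fold lower with no overlap (log2 fold change -1.42 ± 0.065 (SE), limma adjusted p = 2.9e-09), and Prf1, the perforin gene, at 2.39, 1.86 and 2.02 TPM with Srci1 and 17.1, 14.8 and 15.3 TPM with DMSO. Srgn, the granule proteoglycan, fell 2.04-fold, and Ctsw rose 1.6-fold. Of 5 tested genes, 1 rose and 3 fell, where 18.9% of all tested genes were higher and 10.7% lower. CD8 T cell and NK cell markers summed to 25.3 to 25.9 TPM with Srci1 and 34.7 to 37.1 TPM with DMSO over 10 genes, with Ncr1 at 0 in all 6 libraries and Cd8a at 0.46, 0.69 and 1.23 TPM with Srci1 and 0.31, 0.14 and 0.27 TPM with DMSO. In that list 0 of 5 tested genes rose and 2 fell, Klrc1 and Klrk1. Their part in the fall of TH1 and granule genes was not tested.

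Cytokine genes that define TH17 cells were near 0 in these Treg cultures. Il17a and Il17f stayed below 1 TPM in all 6 libraries and were not tested. The chemokine gene Ccl20 fell 1.88-fold (15.2 ± 0.466 TPM with Srci1 against 28.6 ± 2.35 TPM with DMSO), and Maf 1.53-fold. Of 10 genes counted, 5 fell and 2, Batf and Tmem176b, rose (median -0.37). Among all tested genes 10.7% were lower and 18.9% higher, so these rises were close to the share. Ltb4r1 and Il24 were below 1 TPM in every Srci1 library and are not counted. TH2 genes together with Il3 and Csf2 gave 7 lower and 1 higher of 10 (median -1.10). Nfil3 was at 11.9, 13.1 and 12.1 TPM with Srci1 and 39.4, 39.5 and 42 TPM with DMSO, Csf2, which encodes GM-CSF, at 8.34, 7.57 and 7.54 TPM with Srci1 and 24.2, 27.2 and 27.6 TPM with DMSO, and Il3 at 14.2, 11.6 and 13.6 TPM with Srci1 and 39.9, 46.8 and 44.6 TPM with DMSO. The gene that rose was Gata3, the TH2 factor (19.9 ± 1.51 TPM with Srci1 against 14.7 ± 0.537 TPM with DMSO, 1.36-fold), which lost its call after median-of-ratios scaling.

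Glycolysis and hypoxia genes fell without exception among the 23 tested, by a median of -1.05 relative to all genes, where 10.7% of all tested genes were lower. Cells take up glucose through GLUT transporters, break it down by glycolysis and export lactate, and the factor HIF1A raises these genes when oxygen is low. Egln3, an oxygen-sensing hydroxylase gene that HIF1A induces, was at 16.3, 15.5 and 15 TPM with Srci1 and 156, 153 and 155 TPM with DMSO, 9.93-fold lower (log2 fold change -3.23 ± 0.074 (SE), limma adjusted p = 3.88e-12). Bnip3, a mitophagy receptor gene, was at 41.4, 39.5 and 44.5 TPM with Srci1 and 149, 163 and 157 TPM with DMSO, and Slc16a3, the lactate exporter MCT4, at 70.2, 80.6 and 74.7 TPM with Srci1 and 350.0, 335 and 314 TPM with DMSO. The groups were far apart for each of these 3 genes. The glucose transporter genes Slc2a3 and Slc2a1 fell 4.3-fold and 2.2-fold. Among the enzymes the falls were smaller: Pfkp 2.81-fold, Hk2 2.06-fold, Aldoa 2.02-fold (966, 1007 and 927 TPM with Srci1 and 1944, 1922 and 1996 TPM with DMSO), Pgk1 1.9-fold, Gapdh 1.47-fold and Ldha, which makes lactate, 1.23-fold (2109 ± 114 TPM with Srci1 against 2602 ± 72.8 TPM with DMSO). Hif1a was itself 1.54-fold lower (91.9 ± 4.7 TPM with Srci1 against 141 ± 10.04 TPM with DMSO, limma adjusted p = 0.0058).

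The promoters of Egln3 and Bnip3 are shown because they hold the core letters of a hypoxia response element. Among called list genes with these letters, they had the smallest adjusted p. The letters ACGTG, searched on both strands, stand in capitals in these RefSeq windows of 300 bases (250 before to 50 after the gene's start, GRCm38.p6, written 5′ to 3′ on the gene's strand, chr12:54203825-54204124 and chr7:138909457-138909756, both minus strand).
Egln3: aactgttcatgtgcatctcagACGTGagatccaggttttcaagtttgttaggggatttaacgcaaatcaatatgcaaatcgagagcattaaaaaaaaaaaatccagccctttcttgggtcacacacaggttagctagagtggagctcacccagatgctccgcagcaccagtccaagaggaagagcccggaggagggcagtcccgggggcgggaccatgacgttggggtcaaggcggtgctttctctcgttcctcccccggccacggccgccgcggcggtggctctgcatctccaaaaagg
Bnip3: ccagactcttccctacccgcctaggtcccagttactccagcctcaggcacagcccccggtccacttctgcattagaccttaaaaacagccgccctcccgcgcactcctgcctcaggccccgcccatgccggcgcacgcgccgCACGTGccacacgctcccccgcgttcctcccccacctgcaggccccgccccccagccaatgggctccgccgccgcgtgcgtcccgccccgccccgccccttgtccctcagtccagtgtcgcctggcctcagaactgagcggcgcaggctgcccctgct
In Bnip3 the matches on both strands overlap, 107 and 108 bases before the start, and in Egln3 the match lies 229 bases before it. ACGTG was present in 15 of the 21 list genes with a promoter in the table (71.4%) and in 2587 of 8573 tested genes with a promoter (30.2%). A match to letters is a description and does not show binding. The lists, here and below, were made of genes known for these pathways. A bearing of the letter shares on the Srci1 effect was not tested.

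Amino acid stress genes, which ATF4 induces when amino acids are short or the endoplasmic reticulum is stressed, mostly fell. Of 17 counted, 15 fell and 0 rose (median -0.87), where 10.7% of all tested genes were lower. Vldlr, which was below 1 TPM in every Srci1 library, was left out. Asns, asparagine synthetase, was at 24.3, 28.7 and 21 TPM with Srci1 and 82.7, 82.3 and 86.5 TPM with DMSO, 3.4-fold lower (log2 fold change -1.73 ± 0.12 (SE), limma adjusted p = 2.29e-07). Atf3, a stress-induced factor, was at 5.5, 3.21 and 2.37 TPM with Srci1 and 22, 32.5 and 20.5 TPM with DMSO, and Ddit4, an inhibitor of mTORC1, at 86.2, 84 and 88.2 TPM with Srci1 and 189.8, 183 and 188 TPM with DMSO. All 3 showed no overlap. The amino acid transporter genes Slc7a5 and Slc3a2, partners in a single carrier, fell 1.69-fold and 1.41-fold. Among serine synthesis genes Psat1 and Psph were 1.23-fold and 1.34-fold lower, and Phgdh was not called (403 ± 17.3 TPM with Srci1 against 437 ± 22.4 TPM with DMSO, limma adjusted p = 0.157). Atf4 fell only 1.13-fold (202, 207 and 195 TPM with Srci1 and 232, 229.9 and 222 TPM with DMSO), and Ddit3 was not called. Asns carries the composite element of C/EBP and ATF factors, and its window (chr6:7693160-7693459, minus strand, RefSeq GRCm38.p6) is shown with the letters TGATGNAA in capitals.
Asns: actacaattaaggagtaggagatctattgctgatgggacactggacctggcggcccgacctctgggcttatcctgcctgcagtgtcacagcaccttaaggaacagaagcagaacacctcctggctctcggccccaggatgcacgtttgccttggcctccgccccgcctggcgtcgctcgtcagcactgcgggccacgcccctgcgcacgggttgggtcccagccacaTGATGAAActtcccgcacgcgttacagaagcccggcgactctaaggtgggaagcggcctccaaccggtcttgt
The element lies 23 bases before the start. The letters were found on either strand in 6 of 16 list promoters (37.5%) and in 233 of 8573 promoters of tested genes (2.72%).

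Interferon response genes were lower in 11 of 15 tested cases and higher in 0 (median -0.59), where 10.7% of all tested genes were lower. Irgm1, an interferon-inducible GTPase, was at 55.3, 58 and 59.4 TPM with Srci1 and 98.9, 96.9 and 102 TPM with DMSO, 1.73-fold lower (log2 fold change -0.78 ± 0.082 (SE), limma adjusted p = 1e-05). Irf7, which amplifies type I interferon, was at 6.25, 6.09 and 6.92 TPM with Srci1 and 16, 15.4 and 13.8 TPM with DMSO, and Isg20, an exonuclease gene, at 31, 30.4 and 33.3 TPM with Srci1 and 65.7, 73.8 and 69.7 TPM with DMSO. Gbp2 and Igtp, GTPase genes at much higher levels, fell 1.35-fold and 1.38-fold (524 ± 25.2 TPM with Srci1 against 707 ± 16.2 TPM with DMSO, and 328 ± 13.7 TPM with Srci1 against 454 ± 2.56 TPM with DMSO). Stat2 (25.9 ± 2.42 TPM with Srci1 against 35 ± 0.654 TPM with DMSO) and Ifi47 (216 ± 9.53 TPM with Srci1 against 234 ± 5.31 TPM with DMSO) were not called, and Ifit1, Oas1a and Rsad2 were too low to test. Irf8, named here after its values were seen, encodes a related factor and was at 99.9, 104 and 103 TPM with Srci1 and 345, 359 and 358 TPM with DMSO. The Irgm1 window (chr11:48871371-48871670, minus strand, RefSeq GRCm38.p6) is shown for its interferon-stimulated response element, with matches to 2 copies of GAAA, 2 bases apart, in capitals.
Irgm1: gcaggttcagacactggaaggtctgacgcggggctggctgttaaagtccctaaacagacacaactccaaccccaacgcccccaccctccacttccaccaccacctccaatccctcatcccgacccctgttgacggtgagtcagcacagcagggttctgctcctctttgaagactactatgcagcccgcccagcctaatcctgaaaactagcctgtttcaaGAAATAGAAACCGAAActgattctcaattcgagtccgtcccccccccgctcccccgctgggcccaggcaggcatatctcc
Its 2 matches overlap, starting 30 and 24 bases before the start. Such letters were present on either strand in 6 of 11 list promoters (54.5%) and in 326 of 8573 promoters of tested genes (3.8%).

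Cholesterol synthesis genes rose in 16 of 23 cases and fell in 0, with a median of 0.37, where 18.9% of all tested genes were higher. After median-of-ratios scaling 14 rose and 1 fell. The pathway builds sterols from acetyl-CoA under the control of SREBP2. Mvd, an enzyme of the mevalonate branch, was at 78.2, 79 and 77.7 TPM with Srci1 and 42.5, 42.2 and 41.2 TPM with DMSO, 1.87-fold higher with no overlap (log2 fold change 0.88 ± 0.058 (SE), limma adjusted p = 1.05e-07). Sqle, which oxidises squalene, was at 98, 99.6 and 99.3 TPM with Srci1 and 62.5, 58.8 and 60.3 TPM with DMSO, and Hmgcs1, an early enzyme of the pathway, at 204, 187 and 195 TPM with Srci1 and 126, 128 and 133 TPM with DMSO. Dhcr7 and Acat2 rose 1.76-fold and 1.71-fold. Srebf2, the gene of SREBP2 (181 ± 8.77 TPM with Srci1 against 191 ± 4.24 TPM with DMSO), was not called. In fatty acid synthesis and desaturation 5 of 13 rose and 3 fell (median -0.0074), or 3 and 3 after median-of-ratios scaling: Elovl6 rose 1.75-fold and Scd2 fell 1.3-fold. The Scd2 call ended without DMSO replicate 2 (limma adjusted p = 0.0541) or Srci1 replicate 1 (0.0587). The sterol regulatory letters TCACNCCAC were found on either strand in 1 of 17 cholesterol promoters (5.88%), that of Hmgcs1, and in 118 of 8573 promoters of tested genes (1.38%). The Hmgcs1 window (chr13:119690101-119690400, plus strand, RefSeq GRCm38.p6) holds them 137 bases before the start.
Hmgcs1: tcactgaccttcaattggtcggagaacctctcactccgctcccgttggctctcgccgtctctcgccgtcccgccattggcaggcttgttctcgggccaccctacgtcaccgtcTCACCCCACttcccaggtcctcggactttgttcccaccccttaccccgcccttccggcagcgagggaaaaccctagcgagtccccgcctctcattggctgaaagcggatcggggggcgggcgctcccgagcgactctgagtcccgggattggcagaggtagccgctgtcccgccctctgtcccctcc

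Cell division genes rose. Of 24 mitosis and spindle genes 21 rose and 0 fell (median 0.48), and of 28 DNA replication and nucleotide synthesis genes 20 rose and 0 fell (median 0.28). After median-of-ratios scaling the counts were 19 and 0 for mitosis, and 15 and 1 for replication. Among all tested genes 18.9% were higher before this scaling. Rrm2, a ribonucleotide reductase subunit, was at 298, 287 and 292 TPM with Srci1 and 174, 169.5 and 169 TPM with DMSO, 1.71-fold higher (log2 fold change 0.77 ± 0.057 (SE), limma adjusted p = 3.07e-07). Birc5, which encodes survivin, was at 301, 318 and 289 TPM with Srci1 and 173, 179 and 181 TPM with DMSO, and Ccna2, cyclin A, at 204, 208 and 204 TPM with Srci1 and 129.8, 126 and 126 TPM with DMSO. Tyms rose 1.69-fold, Kif20a 1.69-fold, Top2a 1.55-fold and Mki67 1.9-fold. Cdk1 (357 ± 19.6 TPM with Srci1 against 316 ± 3.45 TPM with DMSO) and E2f1 (19.97 ± 1.59 TPM with Srci1 against 19 ± 2.58 TPM with DMSO) were not called.

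**Figure D3:**
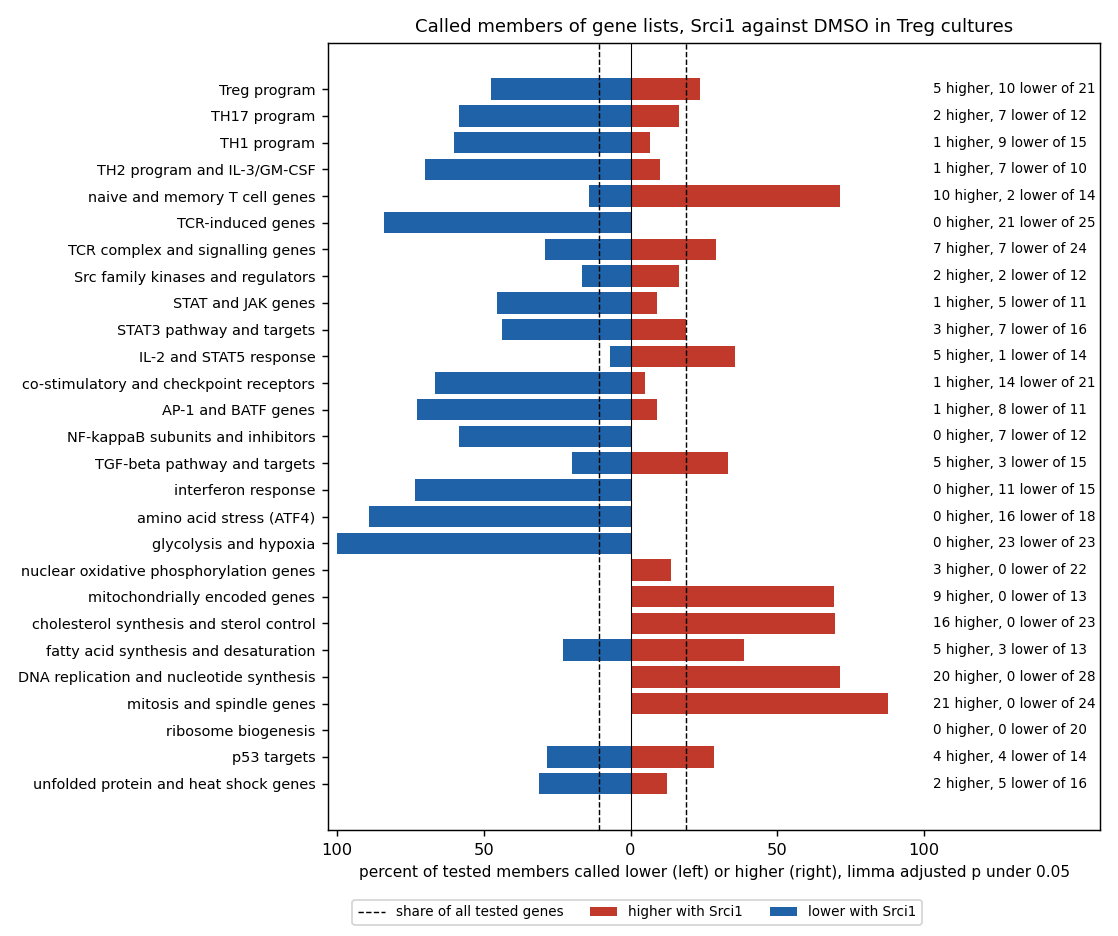
For each gene list, the percent of tested members called lower (blue, left) or higher (red, right) with Srci1 in Treg cultures by limma, with the counts over all tested members, those below 1 TPM throughout a group included, printed at the right and dashed lines at the share of all tested genes (10.7% lower and 18.9% higher). Glycolysis, amino acid stress and TCR-induced genes lie at the left, and mitosis, replication, cholesterol and naive genes at the right.

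Mitochondrially encoded transcripts rose in 9 of 13 and fell in 0 (median 0.53), with 5 rising after median-of-ratios scaling. The complex I subunit gene mt-Nd2 was at 2192, 2411 and 2443 TPM with Srci1 and 1214, 1228 and 1296 TPM with DMSO and mt-Nd1 at 3877, 4222 and 4327 TPM with Srci1 and 2560.1, 2429 and 2652 TPM with DMSO. mt-Co3 spanned 290.4, 629.5 and 320.0 TPM with Srci1 and 0.02, 139 and 144 TPM with DMSO, and its DMSO libraries differ so widely that no fold is given. Nuclear genes of oxidative phosphorylation were mostly not called, 3 higher and 0 lower of 22 (median -0.027; 1 higher after median-of-ratios scaling). Of 77 ribosomal protein genes 52 fell and 1 rose. For the counts in this paragraph, the shares of all tested genes were 18.9% higher and 10.7% lower. Ribosome biogenesis genes gave 0 higher and 0 lower of 20 by limma (median -0.17; 5 lower after median-of-ratios scaling).

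The largest changes lay outside these lists for the most part. Pdlim4, an actin-associated LIM protein gene, was at 29, 27 and 27.9 TPM with Srci1 and 1.23, 0.75 and 0.71 TPM with DMSO, 31.2-fold higher (log2 fold change 3.94 ± 0.17 (SE), limma adjusted p = 1.97e-09). Myl10, a myosin light chain gene, was at 30.6, 30.1 and 33.5 TPM with Srci1 and 1.8, 2.23 and 1.1 TPM with DMSO, and Myo6, which encodes myosin VI, at 174, 120.2 and 166 TPM with Srci1 and 16.5, 18 and 17.5 TPM with DMSO. These 3 cytoskeletal genes separated the groups without overlap. Drc1, of the dynein regulatory complex, was at 75.1, 101 and 66.8 TPM with Srci1 and 17.3, 20.2 and 20.5 TPM with DMSO, Rasgrp2, an activator of the GTPase RAP1, at 54.7, 77.6 and 83.7 TPM with Srci1 and 9.88, 22.4 and 24.9 TPM with DMSO, and Icosl, the ligand of ICOS, at 5.63, 6.62 and 6.77 TPM with Srci1 and 1.08, 1.07 and 0.78 TPM with DMSO. Ms4a6c, Nrep and Cpe rose 5.5-fold, 4.72-fold and 5.3-fold. On the other side, Crabp2, a retinoic acid binding protein gene, was at 23.3, 21.1 and 13.9 TPM with Srci1 and 241, 238 and 253 TPM with DMSO, 12.5-fold lower (log2 fold change -3.61 ± 0.15 (SE), limma adjusted p = 1.68e-09). Spp1, which encodes osteopontin, was at 5.63, 6.62 and 3.99 TPM with Srci1 and 64.2, 64.1 and 70.01 TPM with DMSO, and Upp1, uridine phosphorylase, at 1.99, 2.75 and 1.48 TPM with Srci1 and 33.4, 27.8 and 26.9 TPM with DMSO. Among integrins Itga3 was at 5.18, 6.56 and 5 TPM with Srci1 and 46.8, 52.1 and 51.9 TPM with DMSO and Itga7 at 0.39, 0.77 and 0.52 TPM with Srci1 and 12.9, 14.8 and 12.1 TPM with DMSO. Ptpn5 and Hsf2bp fell 9.39-fold and 14.7-fold. Itga7 and Hsf2bp were below 1 TPM in every Srci1 library and passed the filter through the DMSO libraries alone. Rn7sk, a small nuclear RNA without a poly(A) tail that restrains transcription elongation, was at 90.1, 118 and 101 TPM with Srci1 and 813, 818 and 773 TPM with DMSO, and Rpph1, the RNA of ribonuclease P, named after its values were seen, moved the other way (207, 241 and 220.4 TPM with Srci1 and 102, 66.9 and 91.9 TPM with DMSO). Both came from libraries made by poly(A) selection.

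Markers of other cell types were mostly near 0, with exceptions that moved with Srci1. B cell markers summed to 273 to 297 TPM with Srci1 and 163 to 168 TPM with DMSO over 9 genes, almost all of it Ighm, the IgM heavy chain, at 271, 292 and 268 TPM with Srci1 and 161, 159 and 162 TPM with DMSO (log2 fold change 0.78 ± 0.058 (SE), limma adjusted p = 3.11e-07). Cd79a, Ms4a1 and Pax5, which define B cells, stayed at or below 0.74 TPM in all 6 libraries, and of 2 tested genes 1 rose. The gamma delta list summed to 102 to 112 TPM with Srci1 and 24.6 to 30.2 TPM with DMSO, from the constant regions Tcrg-C1, Tcrg-C2 and Tcrg-C4 (3 of 3 higher, 5.3-fold for Tcrg-C4), beside Trdc at 0.67, 0.61 and 1.09 TPM with Srci1 and 0.44, 0.55 and 0.56 TPM with DMSO. These constant regions are alike in sequence and may share reads. Red cell markers summed to 83.1 to 100.4 TPM with Srci1 and 25.5 to 28 TPM with DMSO, from Gata1 (52.6, 65.6 and 52.1 TPM with Srci1 and 15.7, 20.7 and 12.5 TPM with DMSO) and Hba-a1 (20.02, 25.6 and 16.7 TPM with Srci1 and 3.4, 1.29 and 1.81 TPM with DMSO), whose near-identical copy Hba-a2 makes its value uncertain. Slc4a1 was at 0 in all 6 libraries, and 2 of 3 tested genes rose. Myeloid and dendritic markers summed to 124 to 138 TPM with Srci1 and 164 to 169 TPM with DMSO, mostly Cd74, with Lyz2, Siglech and S100a8 at 0 in all 6 and 2 of 6 tested genes lower. The MHC class II gene H2-Ab1 was at 5.13, 6.32 and 6.49 TPM with Srci1 and 33.2, 36.2 and 37.3 TPM with DMSO. The part of these transcripts in the other results was not tested. Among all tested genes 18.9% were higher and 10.7% lower, and these marker lists hold few tested genes.

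The response differed from that of TH17 cultures for 1704 genes (14.5%), tested as the Srci1 effect in Treg minus that in TH17 cultures. It was lower in Treg for 1378 (11.7%) and higher for 326 (2.78%). Without TH17 Srci1 replicate 3 or Treg DMSO replicate 2 the higher count was 203 or 207. After median-of-ratios scaling the counts were 1083 lower and 642 higher. The factors of this scaling were 0.79 to 0.94 in TH17 DMSO libraries, lowest in replicate 3, and 1.04 to 1.08 in TH17 Srci1 libraries. In Treg libraries they were closer, at 1.02 to 1.03 with DMSO and 1.09 to 1.13 with Srci1. Of the tested genes 1909 (16.3%) were called in the same direction in both cultures and 193 (1.64%) in opposite directions with a called difference. Of these, 163 (1.39%) were lower in Treg and higher in TH17, and 30 (0.256%) the reverse. The median log2 fold change over all tested genes was 0.23 in TH17 cultures, against 0.12 in Treg. Across genes, which are not independent replicates, the effects correlated at r = 0.443.

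Foxp3 rose in both cultures and less in Treg. In TH17 cultures it was 204 ± 8.37 TPM with Srci1 against 11.7 ± 2.15 TPM with DMSO (difference -2.98 ± 0.14 (SE), limma adjusted p = 1.33e-08, on the log2 scale). Stat3 fell in Treg and was higher in TH17 cultures (157 ± 4.49 TPM with Srci1 against 121 ± 18.3 TPM with DMSO in TH17; difference -1.19 ± 0.14 (SE), limma adjusted p = 8.51e-05). The TH17 effect of Stat3 was 0.39 on the log2 scale, against 0.23 for the median tested gene. Gzmb and Prf1 fell in Treg and rose in TH17 cultures. The TH17 values were for Gzmb 43.7 ± 2.17 TPM with Srci1 against 6.84 ± 0.293 TPM with DMSO (difference -3.93 ± 0.092 (SE), limma adjusted p = 5.08e-12) and for Prf1 3.29 ± 0.564 TPM with Srci1 against 0.753 ± 0.291 TPM with DMSO (difference -3.74 ± 0.20 (SE), limma adjusted p = 5.54e-08). The largest difference by the naming rule was that of Il3, at 21.1 ± 4.14 TPM with Srci1 against 0.843 ± 0.627 TPM with DMSO in TH17 cultures (difference -5.29 ± 0.37 (SE), limma adjusted p = 9.22e-07), although with a pseudocount of 0.1 the fall in Treg lost its call (limma adjusted p = 0.0731). Serpina3f, of a serine protease inhibitor family with close copies that may share reads, was at 7.5 ± 0.406 TPM with Srci1 against 47.3 ± 2.78 TPM with DMSO in Treg and 9.21 ± 0.358 TPM with Srci1 against 1.64 ± 0.233 TPM with DMSO in TH17 cultures, a difference of -4.46. The ubiquitin-like gene Ubd was at 42.9 ± 2.84 TPM with Srci1 against 61.4 ± 2.82 TPM with DMSO in Treg and 217 ± 9.44 TPM with Srci1 against 29.9 ± 4.54 TPM with DMSO in TH17 cultures, a difference of -3.34. Il1rn, the gene of the IL-1 receptor antagonist, at 0.22, 0.34 and 0.29 TPM with Srci1 and 1.01, 2.36 and 9.83 TPM with DMSO in Treg cultures, had a difference of -3.27. Its Treg effect was -1.71 on the log2 scale, and -1.02 without the high DMSO replicate 3.

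Among genes whose effect was higher in Treg cultures, Id2 showed opposite directions. This inhibitor of E-protein factors was at 116, 114 and 118 TPM with Srci1 and 76.4, 75.9 and 80.2 TPM with DMSO in Treg cultures and at 115 ± 8.01 TPM with Srci1 against 302 ± 6.34 TPM with DMSO in TH17 cultures (difference 1.96 ± 0.079 (SE), limma adjusted p = 2.29e-09). Vax2, a homeobox gene, fell in both cultures and less in Treg (difference 1.84), at 1.19 ± 0.183 TPM with Srci1 against 3.51 ± 0.449 TPM with DMSO in Treg and 0.183 ± 0.161 TPM with Srci1 against 7.8 ± 1.99 TPM with DMSO in TH17 cultures. Nebl and Ly6c1 were not called in Treg (limma adjusted p = 0.506 and 0.644) and had differences of 1.97 and 2.91, of which the second is uncertain because Ly6c1 has near-identical neighbours. In TH17 cultures both fell, Ly6c1 at 26.5 ± 6.52 TPM with Srci1 against 173 ± 4.98 TPM with DMSO and Nebl at 2.21 ± 0.813 TPM with Srci1 against 14.1 ± 3.75 TPM with DMSO. Myl10 and Ms4a6c, both higher in Treg, had differences of 1.93 and 1.62. The Myl10 difference lost its call with a pseudocount of 0.1 (limma adjusted p = 0.142).

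**Figure D4:**
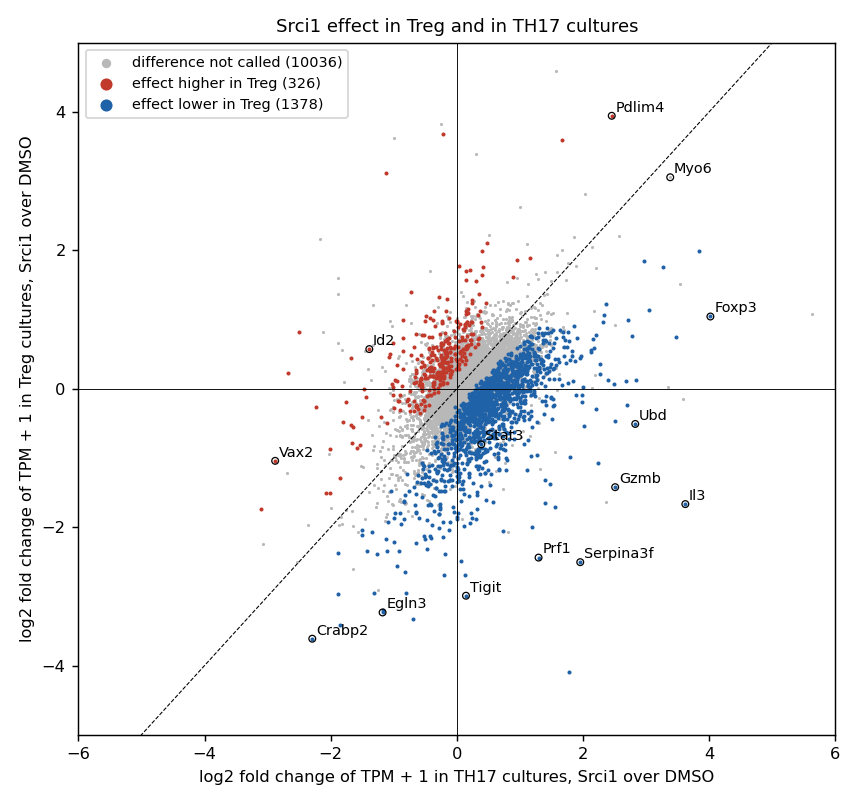
Log2 fold change of TPM + 1, Srci1 over DMSO, in Treg cultures (y axis) against TH17 cultures (x axis) for the 11740 tested genes, with the 326 genes whose effect was higher in Treg in red, the 1378 whose effect was lower in blue and a dashed line at equal effects. Foxp3 lies right of the line with a positive value in both cultures, and Gzmb, Il3 and Serpina3f lie below 0 in Treg and above 0 in TH17.

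The metabolic lists showed the difference member by member. The glycolysis effect was lower in Treg for 20 of 23 genes, beside 11.7% of all tested genes. Of the 23, 15 fell in TH17 cultures as well, where 6.7% of all tested genes were lower and 36.1% higher. The glycolysis median there was -0.51 relative to all genes, against -1.05 in Treg. For amino acid stress 16 of 18 effects were lower in Treg, Vldlr included, and 8 genes were called in opposite directions, such as Trib3, a pseudokinase gene that fell 1.82-fold in Treg and was 23.9 ± 3.1 TPM with Srci1 against 10.9 ± 1.49 TPM with DMSO in TH17 cultures (difference -1.87 ± 0.18 (SE), limma adjusted p = 1.55e-05). Interferon genes gave 12 of 15 lower and 5 opposite, where 1.64% of all tested genes were opposite. Relative to all genes, the TH17 medians were only 0.093 for amino acid stress and 0.12 for interferon genes. The cholesterol effect was lower in Treg for 17 of 23 genes, and all 23 rose in TH17 cultures. Nsdhl, a sterol dehydrogenase gene, rose 1.34-fold in Treg and was 54.7 ± 2.62 TPM with Srci1 against 20.6 ± 1.24 TPM with DMSO in TH17 cultures (difference -0.96 ± 0.10 (SE), limma adjusted p = 4e-05). For TCR-induced genes 9 of 25 effects were lower in Treg and 2 higher. In TH17 cultures 15 of these 25 fell and 3 rose, with a median of -0.63 relative to all genes. Checkpoint receptors, Havcr2 included, fell there in 11 of 21 cases and rose in 6 (median -0.61). Mitosis genes rose in 22 of 24 cases in TH17 cultures and replication genes in 26 of 28, with 0 falling in either list. The TH17 shares of all tested genes were 6.7% lower and 36.1% higher. The list counts of this comparison between cultures were not repeated after median-of-ratios scaling.

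**Figure D5:**
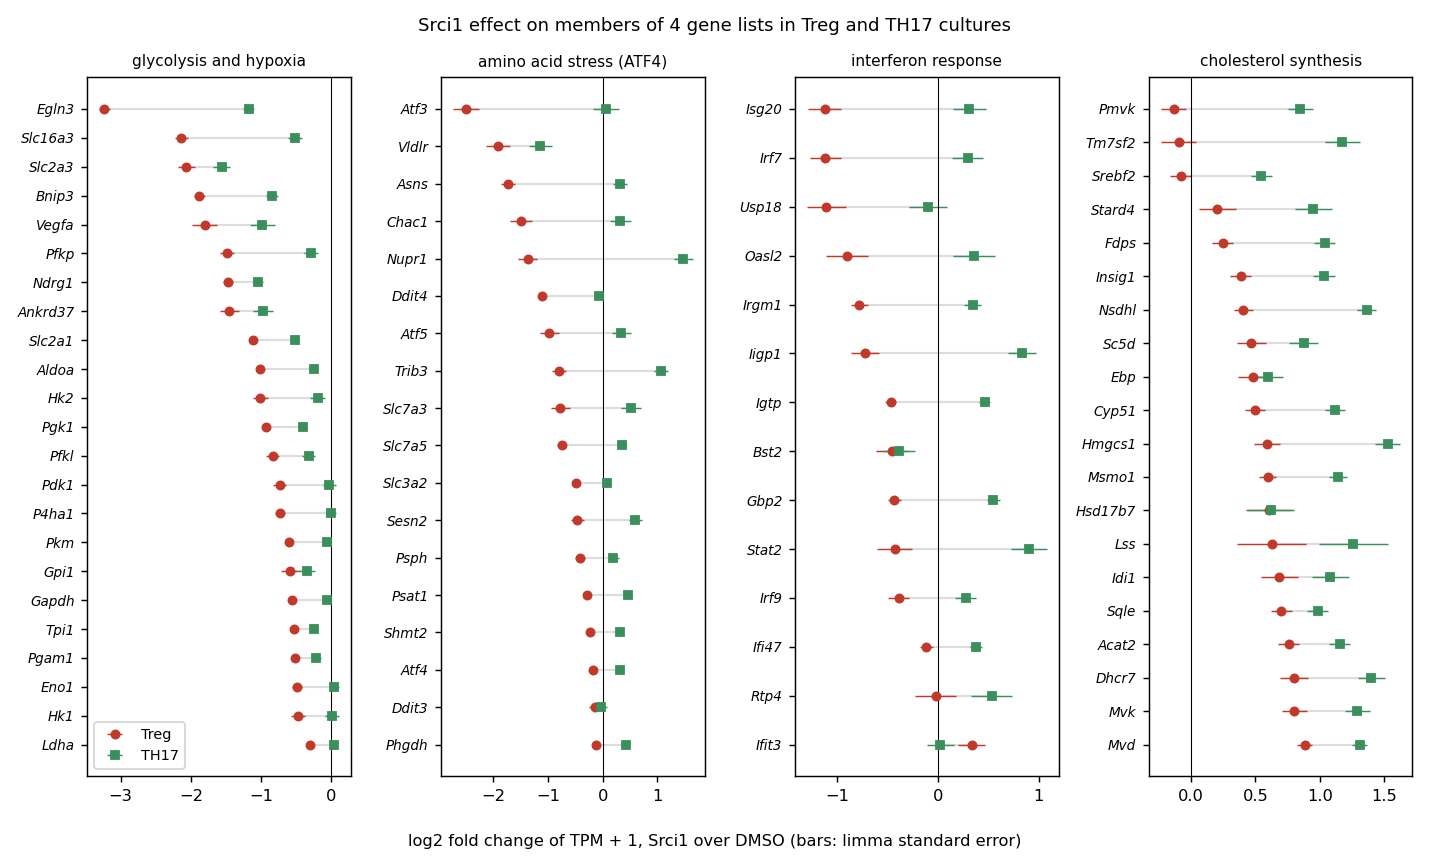
Log2 fold change of TPM + 1, Srci1 over DMSO, of tested members of 4 lists in Treg (red circles) and TH17 cultures (green squares), with bars for limma's standard error and a grey line joining the values of a gene. All 23 glycolysis genes lie left of 0 in Treg. Most amino acid stress and interferon genes lie left of 0 in Treg and right of it in TH17. Cholesterol genes lie right of 0 in TH17. The median over all tested genes also lay right of 0, at 0.12 in Treg and 0.23 in TH17 cultures.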

How the data were processed

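RNA was extracted with TRIzol, selected for poly(A) and made into libraries with NEBNext Ultra II, per the labels' protocols. Reads were processed with STAR 2.7.9a, RSEM 1.3.3 and GRCm38, per the submitters' processing notes. The authors deposited TPM values for 55421 gene IDs in 15 libraries. No source used here gives the strand setting, and reads of genes that overlap, also in antisense, may not be told apart. Depth is unknown, and no counting intervals are given.

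Symbols came from a table of gene names (54587 IDs matched, 104 symbols on more than 1 ID), and coordinates from the GENCODE annotation of GRCm38. Genes that reached 1 TPM in 3 or more of the 6 Treg libraries were tested on log2(TPM + 1), a scale that understates changes of low genes, with limma 3.58.1 in R 4.3.3. The fit used a variance trend and 5 group means over all 15 libraries (10 residual degrees of freedom), including 3 TH17 libraries of STAT3-knockout cells that enter no comparison. Calls had a Benjamini-Hochberg adjusted p under 0.05 over 11740 genes. The steps were checked on simulated data. Alternatives were pseudocount, filter, scaling, library weights, the samples in the model, a replicate block and each library left out.

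The comparison and gene lists were chosen with earlier results of these data known. Genes were named as a fixed set of lineage, STAT and Src genes, as the called genes of largest change with at least 5 TPM in a group and no overlap (10 a direction, and 6 a direction for the difference between cultures, where overlap was not asked), and as list members by adjusted p or role. A few genes of these lists are counted but not reported by name here. Promoter windows and motifs came from RefSeq GRCm38.p6.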

Additional observations from a re-analysis of the deposited data

Results flagged for a closer look

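Named genes whose Srci1 effect differed between Treg and TH17 cultures by limma (adjusted p under 0.05) are given here as the effect in Treg minus that in TH17, on the log2 scale. Among lineage and signalling genes the difference was -2.98 for Foxp3, -1.19 for Stat3 and -0.907 for Socs3. It was -0.533 for Stat5b, -0.863 for Src and 0.792 for Il2, calls that each ended under at least 1 alternative. The Socs3 effect was near 0 in Treg (-0.0052) and 0.90 in TH17.

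Chosen as the most different, Il3 was at -5.29, Serpina3f at -4.46, Gzmb at -3.93, Prf1 at -3.74, Ubd at -3.34 and Il1rn at -3.27. In the opposite direction Ly6c1 was at 2.91, Nebl at 1.97, Id2 at 1.96, Myl10 at 1.93, Vax2 at 1.84 and Ms4a6c at 1.62.

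Of the genes that changed most in Treg cultures, Pdlim4 (1.49) and Icosl (0.728) rose more there than in TH17 cultures, and Drc1 rose less (-1.84). Falls were deeper in Treg, or met a smaller or opposite effect in TH17, for Tigit (-3.14), Upp1 (-2.62), Hsf2bp (-2.49), Rn7sk (-2.15), Egln3 (-2.06) and Itga7 (-2.03). The same held for Ptpn5 (-1.64), Spp1 (-1.55), Crabp2 (-1.32) and Itga3 (-1.08). Hsf2bp, Itga7 and Il1rn were below 1 TPM in every Treg Srci1 library and were tested through their DMSO libraries.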

How the results depend on the processing

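In Treg cultures 2224 genes were higher, against 3417 with array weights (whose estimation did not converge fully) and 1374 after median-of-ratios scaling. The count at 2-fold or more higher was 130, against 79 after median-of-ratios scaling and 217 with a pseudocount of 0.1. For the difference between cultures, 326 were higher in Treg, against 977 with array weights, 642 after median-of-ratios scaling and 745 after quantile normalization, and 1378 were lower, against 2592 with array weights. Leaving out each library gave 1525 to 1747 higher, 1038 to 1097 lower, 125 to 144 and 330 to 339 at 2-fold or more higher and lower, and 203 to 330 and 1003 to 1693 for the difference. With replicate number as a replicate block, 2106 genes were higher and 1227 lower (274 and 1267 for the difference). Same-numbered Treg libraries deviated together at r = 0.00138, 0.0444 and -0.0703, and 0 of 3 correlated best with its own number, so the numbers were not taken to pair libraries. Of 225 named gene results 210 were called, 26 of them lost the call under at least 1 alternative (2 under the block), and 0 turned. Of the uncalled results, Cish and Il2 in Treg gained a call under 4 and 5 alternatives, and the Ctla4 difference with array weights (-0.24, limma adjusted p = 0.0406). Uncalled values near 0 changed sign: the Lck difference (0.010 with array weights, 0.093 median-of-ratios, 0.0028 quantile, 0.0044 without ribosomal and mitochondrial genes), the Fyn effect in Treg (-0.050 median-of-ratios), the Fyn difference (0.045 median-of-ratios, 0.046 quantile) and the Cish difference (0.0013 array weights, 0.078 median-of-ratios). Leaving out a library gave -0.41 to 0.063 for the Ikzf2 difference, -0.21 to 0.022 for Src in Treg and -0.047 to 0.023 for Socs3 in Treg. The cause was not tested. Depth is unknown, so how far it limits low genes cannot be given.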

Other observations

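Receptors of the TGFβ pathway rose. Tgfbr1 was at 17.5, 18.8 and 21.1 TPM with Srci1 and 10.4, 8.87 and 9.04 TPM with DMSO, 2.03-fold higher, and Tgfbr2 and Tgfbr3 rose 1.51-fold and 2.17-fold. The ligand gene Tgfb3 was at 0.43, 0.26 and 0.33 TPM with Srci1 and 2.76, 2.53 and 2.89 TPM with DMSO, and passed the filter through the DMSO libraries alone. Leaving out the 2 genes of that kind, 5 of 13 rose and 1 fell (median 0.10), with Smad2, Smad3 and Smad4 uncalled. The inhibitor of E-protein factors Id3, named after its values were seen, was at 74.6, 75.9 and 74.2 TPM with Srci1 and 35.4, 37.6 and 34.1 TPM with DMSO and differed from TH17 cultures (difference 1.54 ± 0.14 (SE), limma adjusted p = 8.6e-06). Cdkn1a, which encodes the cell cycle inhibitor p21, was at 51.6, 48.2 and 55.4 TPM with Srci1 and 118, 125 and 126 TPM with DMSO (log2 fold change -1.24 ± 0.081 (SE), limma adjusted p = 1.04e-07). In the p53 list that holds it, 4 of 14 rose (2 after median-of-ratios scaling), among them Sesn1 (1.61-fold) and Ccng1 (1.41-fold), and 4 fell, among them the kinase gene Plk2 (2.96-fold). Over all tested genes 18.9% were higher and 10.7% lower, for comparison with each list count here and in the next paragraph.

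Chemokine ligand genes fell in 5 of 8 cases, and the gene that rose was Ccl1, a CCR8 ligand, at 162, 149 and 175 TPM with Srci1 and 52.2, 54.2 and 56 TPM with DMSO (log2 fold change 1.56 ± 0.14 (SE), limma adjusted p = 2.53e-06). Its receptor gene Ccr8 fell 1.86-fold (32.5, 34.2 and 34.8 TPM with Srci1 and 61.3, 62.5 and 65 TPM with DMSO). Of the genes that fell, Ccl3, Ccl4 and Ccl5 are also counted in the TH1 list, Ccl20 in the TH17 list and Ccr8 in the TH2 list. Chemokine receptors gave 4 lower and 0 higher of 7. Among integrins 2 rose and 4 fell of 10 (1 and 5 after median-of-ratios scaling), and the rises were close to the share of all tested genes (18.9%). Itgb7, the partner of alpha 4 and alpha E chains, rose 1.4-fold, and Itgav fell 1.99-fold (15.7, 17.3 and 16.1 TPM with Srci1 and 36.8, 31.5 and 29.5 TPM with DMSO). Genes of follicular helper cells fell in 5 of 9 and rose in 1, Slamf6. Chaperone genes fell in 5 of 16 and rose in 2 (0 after median-of-ratios scaling), rises below the share of all tested genes. Hspa5, the main chaperone of the endoplasmic reticulum, fell 1.37-fold. Hspa1a was at 1.76, 2.49 and 2.86 TPM with Srci1 and 5.67, 6.06 and 5.94 TPM with DMSO, a value made uncertain by its near-identical copy Hspa1b.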
